A study of Rattus norvegicus with 32 samples.

Results

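Cytosolic sulfotransferases move a sulfate group from the donor PAPS onto steroids, phenols, bile acids, thyroid hormones and drugs, which makes them more soluble and usually ends their activity. Here they were followed by gene symbol in rat liver RNA sequencing. The list named 7 genes, Sult1a1, Sult1b1, Sult1c2, Sult1c3, Sult1e1, Sult2a2 and Sult2al1, taken as rows of the deposited count table whatever their values. Of these 7 symbols 6 were rows of the table, among 17327 genes in all, and 5 passed the low-count filter together with 11002 genes. Sult2al1 was no row, and RefSeq lists it as a synonym of Sult2a6, which was one. The table held 14 rows whose symbol begins with Sult, so that 8 further rows are described beside the listed ones.

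The livers came from 32 rats of the Charles River Sprague Dawley strain, 1 library each, with 4 in each of 8 groups: KO and WT males at 60 days, KO and WT females at 60 days, and the same 4 combinations at 30 days. The KO rats (Cbg-/-) carried a CRISPR/Cas9 disruption of SerpinA6, the gene of corticosteroid-binding globulin (CBG), the plasma carrier of corticosterone, and the WT rats were Cbg+/+. All animals were under basal conditions, and the labels do not say how many edited lines the KO rats came from. The comparisons ask what loss of CBG does to the liver in each sex and at each age.

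In the rat the family is known for its sex differences: the Sult2a enzymes, which sulfate hydroxysteroids and bile acids, predominate in adult females, and Sult1c3 predominates in adult males. Growth hormone, secreted in pulses in males and more evenly in females, sets much of this pattern after puberty. Sult1e1 sulfates estrogens with high affinity, Sult1a1 sulfates simple phenols, and Sult1b1 acts on thyroid hormones and small phenols.

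The genes of the Sult2a rows lie close together: RefSeq places Sult2a6, Sult2a1 and Sult2a2 on chromosome 1 of assembly GRCr8 (chr1:84046685-84097808, chr1:84582011-84639001 and chr1:85037518-85104532). The promoters of these 3 genes are shown because they are alike in sequence while Sult2a2 was called in 60-day KO females and the other two were not, and that of Sult1a1 because this gene fell in 60-day KO females. Each is the RefSeq GRCr8 sequence on the minus strand of chromosome 1, 250 bases before to 50 bases after the annotated start, at chr1:85104483-85104782 for Sult2a2, chr1:84638898-84639197 for Sult2a1, chr1:84097759-84098058 for Sult2a6 and chr1:190706063-190706362 for Sult1a1. Capitals mark matches on either strand to 5 short motifs: TTCNNNGAA (STAT5), AGAACA (glucocorticoid receptor hexamer), AGGTCA (hexamer of several nuclear receptors), GTTAATNAT (HNF1) and TTGCNNAA (C/EBP). No 2 of the matches overlap in these 4 promoters.
Sult2a2: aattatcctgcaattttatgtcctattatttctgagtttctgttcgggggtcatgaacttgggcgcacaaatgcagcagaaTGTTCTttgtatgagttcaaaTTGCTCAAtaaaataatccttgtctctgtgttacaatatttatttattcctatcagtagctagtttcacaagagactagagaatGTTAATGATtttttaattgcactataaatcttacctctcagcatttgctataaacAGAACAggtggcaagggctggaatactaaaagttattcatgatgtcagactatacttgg
Sult2a1: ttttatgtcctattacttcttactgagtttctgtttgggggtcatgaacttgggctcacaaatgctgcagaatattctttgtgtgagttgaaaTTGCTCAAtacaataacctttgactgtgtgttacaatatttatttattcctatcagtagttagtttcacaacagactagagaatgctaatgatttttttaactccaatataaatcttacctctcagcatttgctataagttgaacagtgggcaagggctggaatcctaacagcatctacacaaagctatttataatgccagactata
Sult2a6: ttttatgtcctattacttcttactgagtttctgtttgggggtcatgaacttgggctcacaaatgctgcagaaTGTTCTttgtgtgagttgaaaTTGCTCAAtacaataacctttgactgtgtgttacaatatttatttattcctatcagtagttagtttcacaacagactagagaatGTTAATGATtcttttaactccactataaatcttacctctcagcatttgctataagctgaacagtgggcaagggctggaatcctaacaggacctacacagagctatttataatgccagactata
Sult1a1: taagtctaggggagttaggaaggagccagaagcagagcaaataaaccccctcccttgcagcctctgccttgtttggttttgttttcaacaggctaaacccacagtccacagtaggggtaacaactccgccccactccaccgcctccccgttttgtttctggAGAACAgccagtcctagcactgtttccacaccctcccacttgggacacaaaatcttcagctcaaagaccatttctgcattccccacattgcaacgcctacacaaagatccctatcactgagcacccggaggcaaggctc
In global alignments the Sult2a2 promoter was 79.9% identical to that of Sult2a1 and 81.1% identical to that of Sult2a6, while those of Sult2a1 and Sult2a6 were 97.3% identical. A TTGCNNAA match, TTGCTCAA, began at -157 in Sult2a1 and Sult2a6 and at -148 in Sult2a2, counted from the start as +1. The GTTAATNAT match GTTAATGAT began at -64 in Sult2a2 and at -73 in Sult2a6. The Sult2a1 window held no match, since the same stretch reads gctaatgat there. AGAACA matched at -9 in Sult2a2, and as its reverse complement TGTTCT at -169 in Sult2a2 and at -178 in Sult2a6. In Sult1a1 the AGAACA match at -89 was the only match of the 5 motifs, and Sult1c3 held AGAACA at -79 and +4. Among all 33469 promoters of the RefSeq table, 20.7% held AGAACA, 16.2% AGGTCA, 10.6% TTGCNNAA, 8.87% TTCNNNGAA and 0.747% GTTAATNAT. None of these matches is a measured binding site.

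Reads on genes ranged over 12951969 to 21954929 per library, and levels are given as read counts normalised to library size (CPM) and scaled by the trimmed mean of M values (TMM). CPM is not divided by gene length, so levels are compared within a gene only. Serpina6 itself was lower in KO than in WT livers in all 4 pairs of groups, with log2 fold changes of -4.00 ± 0.26 to -2.95 ± 0.25 (SE, n = 4 each). Replicate 1 of the 60-day KO females stood apart: 10 retina markers summed to 1943 CPM there and to at most 9.72 CPM in any other library, so the main values for that group are also given without it. The 5 intestine markers summed to 59.2 to 143 CPM in KO and 56.0 to 162 CPM in WT males at 60 days and to at most 8.02 CPM in the other groups. Of the 3 that passed the low-count filter 1 was called higher in males than in females at 60 days in each genotype. The median log2 fold changes of the 3 were 0.58 in KO and 0.5 in WT, where 18.5% and 26.4% of all genes were called. The 8 hepatocyte markers were present in every library, at summed levels of 191605 to 281814 CPM. In 60-day females 1 of 8 hepatocyte markers was called, Fgb, which was lower in KO (-0.33, edgeR adjusted p = 0.0242). The median log2 fold change of the 8 was 0.16. Of 5 cholangiocyte markers 1 was called, Epcam, higher in KO (0.54, edgeR adjusted p = 0.00437), with a median of -0.05 over the 5. Of all genes 6.77% were called in this comparison. The part of these markers in the results on that group was not tested. The tissue is a bulk sample, so fewer cells of a type and less RNA per cell cannot be told apart.

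**Figure D1:**
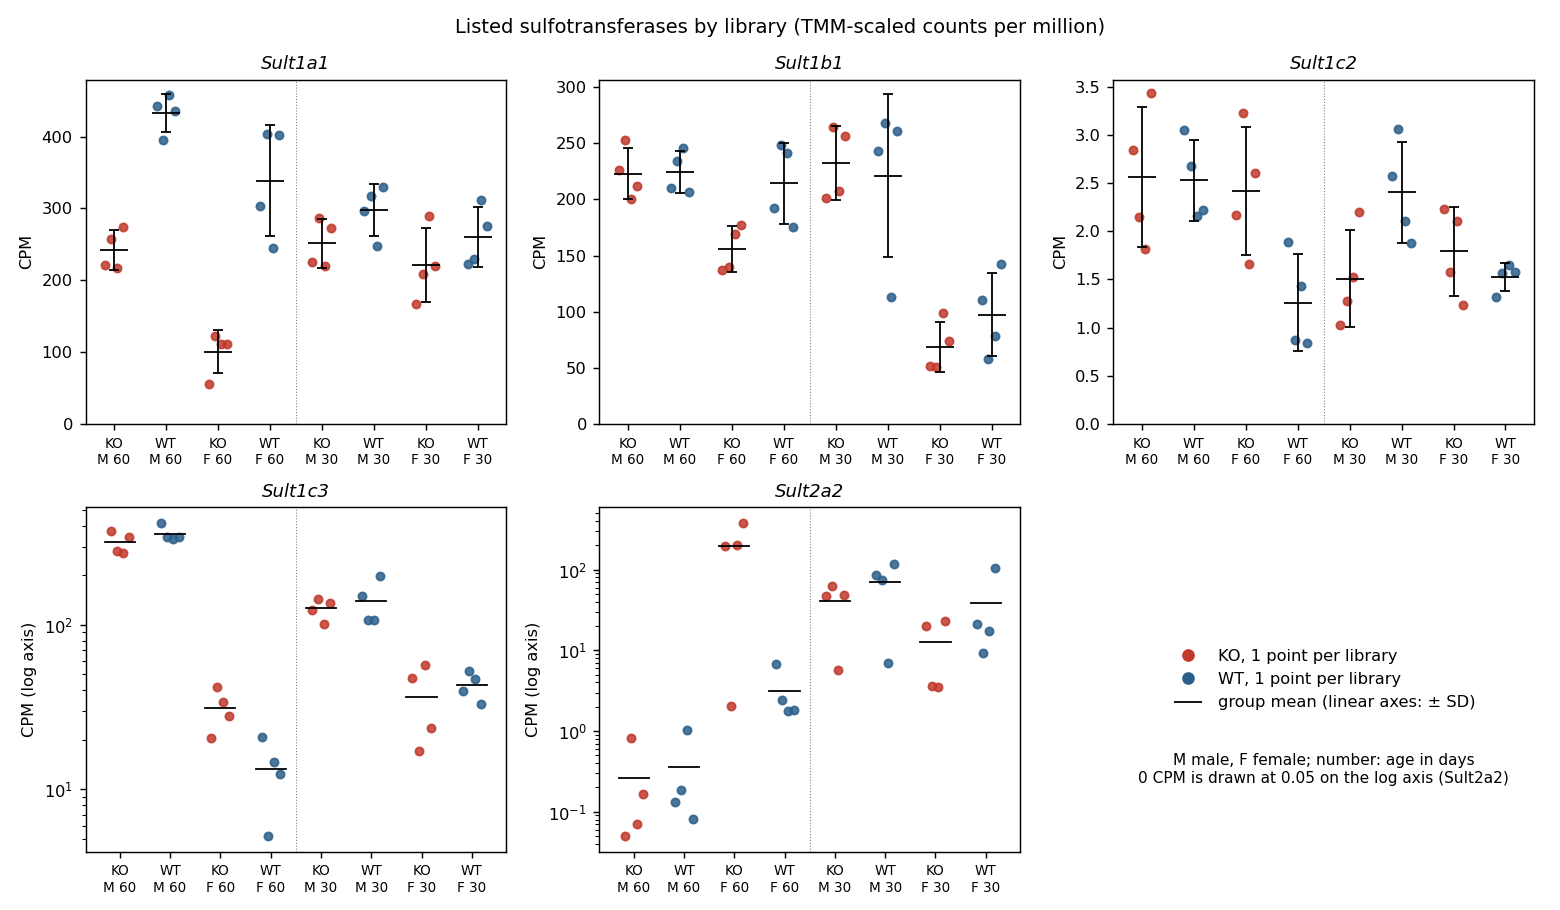
Level of the 5 listed sulfotransferases past the low-count filter, in TMM-scaled CPM (vertical axes, linear or logarithmic as marked), in each of the 32 libraries by genotype, sex and age. In 60-day KO females Sult1a1 lay below every WT library, at 56.3 to 123 CPM against 246 to 404 CPM, and Sult2a2 reached 378 CPM while WT females held at most 6.69 CPM.

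Loss of CBG went with changes in 4 of the 5 tested sulfotransferases in 60-day females: Sult1a1 fell, and Sult2a2, Sult1c3 and Sult1c2 rose (edgeR's quasi-likelihood test, Benjamini-Hochberg adjusted p below 0.05). In this comparison 6.77% of all genes tested were called, 3.48% higher and 3.29% lower. The median log2 fold change of the 5 was 0.94, against 0.01 over all genes. No tested member was called in the other 3 comparisons of KO with WT, in 60-day males (0.209% of all genes called), 30-day females (0.3%) or 30-day males (0.0545%). At an unadjusted p below 0.05 edgeR gave 1 member in each of them, Sult1a1, Sult1b1 and Sult1c2 in that order, and DESeq2 called 1, Sult1a1 in 60-day males. Over the 4 comparisons 4 of 20 member tests were called, and 1.83% of the tests of all genes.

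Sult1a1, the phenol sulfotransferase, stood at 56.3, 123, 111 and 111 CPM in the 4 livers of 60-day KO females, against 304, 404, 246 and 402 CPM in those of WT females. The groups did not overlap, with the highest KO liver at 123 CPM and the lowest WT liver at 246 CPM. The fall was 1.75 ± 0.19 on the log2 scale, 3.37 times lower (SE, n = 4 each; edgeR quasi-likelihood adjusted p = 1.18e-06). Without replicate 1 of the KO females, the lowest value, it was still called, with a fall of 1.56 (adjusted p = 1.79e-06). It was called in all 8 fits that left out 1 of these libraries and in all 10 other settings tried.

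In 60-day males Sult1a1 measured 222, 257, 217 and 275 CPM in KO and 442, 395, 457 and 435 CPM in WT livers. These groups did not overlap either, with a log2 fold change of -0.83 ± 0.19, yet edgeR's adjusted p over all genes was 0.0571 and the gene was not called. DESeq2 gave an adjusted p of 0.00267 and an edgeR fit to these 8 libraries alone 0.00747. Without replicate 4 of the KO males the value was -0.90 (adjusted p = 0.0468). The difference between the sexes in this effect was 0.92 ± 0.26 (males minus females) and was not called (adjusted p = 0.166).

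At 30 days Sult1a1 averaged 251 ± 33.8 CPM in KO and 298 ± 35.9 CPM in WT males, and 221 ± 51.0 CPM in KO and 260 ± 42.1 CPM in WT females (SD, n = 4 each). The log2 fold changes were -0.24 (95% interval -0.63 to 0.14) and -0.23 (-0.62 to 0.15). In females the effect of genotype differed between the ages: the change at 60 against 30 days in KO minus that in WT was -1.52 ± 0.26 on the log2 scale (adjusted p = 0.00199; 2.96% of all genes called), and -1.33 without replicate 1 of the 60-day KO females (adjusted p = 0.00185). In males this difference was -0.59 ± 0.26 and was not called (adjusted p = 0.921; 0.00909% of genes called). The titles of all 30-day KO females end in the same number, and those of most 30-day WT females in another. In 30-day females genotype and what that number stands for can therefore hardly be told apart, which bears on the female difference between the ages. Ordered by mean, 60-day KO females were lowest and did not overlap the next group, while every other neighbouring pair in the order of the 8 groups overlapped, up to 60-day WT males, whose lowest liver at 395 CPM lay below the highest 60-day WT female.

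Sult2a2, a hydroxysteroid and bile acid sulfotransferase, was measured at 199, 2.06, 202 and 378 CPM in 60-day KO females and at 6.69, 2.42, 1.76 and 1.84 CPM in WT females. Of the KO livers 3 lay far above every WT liver, and replicate 2 lay within the WT range. The fitted log2 fold change was 5.96 ± 1.20 (edgeR quasi-likelihood adjusted p = 0.00381). All 8 fits without 1 of these libraries kept the call, with log2 fold changes of 5.42 to 6.59, among them 5.96 without replicate 1 of the KO females (adjusted p = 0.00825). The call depended on the method: limma-voom gave an adjusted p of 0.28 and the edgeR fit to the 8 libraries alone 0.147.

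Sult2a2 was not called at the younger age or in males. In 60-day males Sult2a2 held 0, 11, 1 and 2 reads in KO livers and 2, 3, 16 and 1 reads in WT livers, or at most 0.813 and 1.02 CPM, too few reads for a fold change. In 30-day males it stood at 46.8, 62.7, 5.66 and 48.9 CPM in KO and 86.8, 73.6, 6.90 and 118 CPM in WT livers (log2 fold change -0.80, 95% interval -2.67 to 1.08). In 30-day females the levels were 20.3, 3.64, 3.48 and 23.4 CPM in KO and 21.2, 9.16, 17.3 and 105 CPM in WT livers (-1.60, 95% interval -3.59 to 0.39). All these pairs of groups overlapped. The difference between the ages in the effect of genotype was called in females, at 7.56 ± 1.53 (adjusted p = 0.00845; 7.55 and 0.0167 without replicate 1 of the 60-day KO females). This call was lost with limma-voom (adjusted p = 0.256) and with limma on the deposited log2 values (0.0749). It also rests on the 30-day females, in whom genotype largely coincides with the number in the titles. The difference between the sexes at 60 days was not called by edgeR (adjusted p = 0.618; 0.136% of genes called) and was called by DESeq2 (adjusted p = 0.0153), at read numbers in males that give no size for it. Over the 4 tests of such differences, 2 of 20 member tests were called, and 0.777% of the tests of all genes. At 30 days 0 members were called for a difference between the sexes in the effect of genotype (0% of genes called), with 0 by DESeq2 and 1, Sult1c2, at an unadjusted p below 0.05 (its adjusted p in edgeR's test was 0.848).

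Sult2a2 was among the most variable genes of the whole table within groups. Its biological coefficient of variation, edgeR's estimate of the spread between animals, was 1.01, rank 24 of 11002 genes from the top, against a median of 0.116. The other listed members ranged between 0.186 for Sult1a1 and 0.316 for Sult1c3. Replicate 3 was the low library in both groups of 30-day males, and the same 2 libraries had the lowest Cyp2c11 (88.4 CPM in KO, 56.4 CPM in WT) and the highest Cyp2c12 (1725 and 1711 CPM) of their groups. Cyp2c11 is the classic male-specific and Cyp2c12 the classic female-specific cytochrome P450 of rat liver. These 2 libraries were picked out after their values were seen, and whether the genes vary together was not tested.

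**Figure D2:**
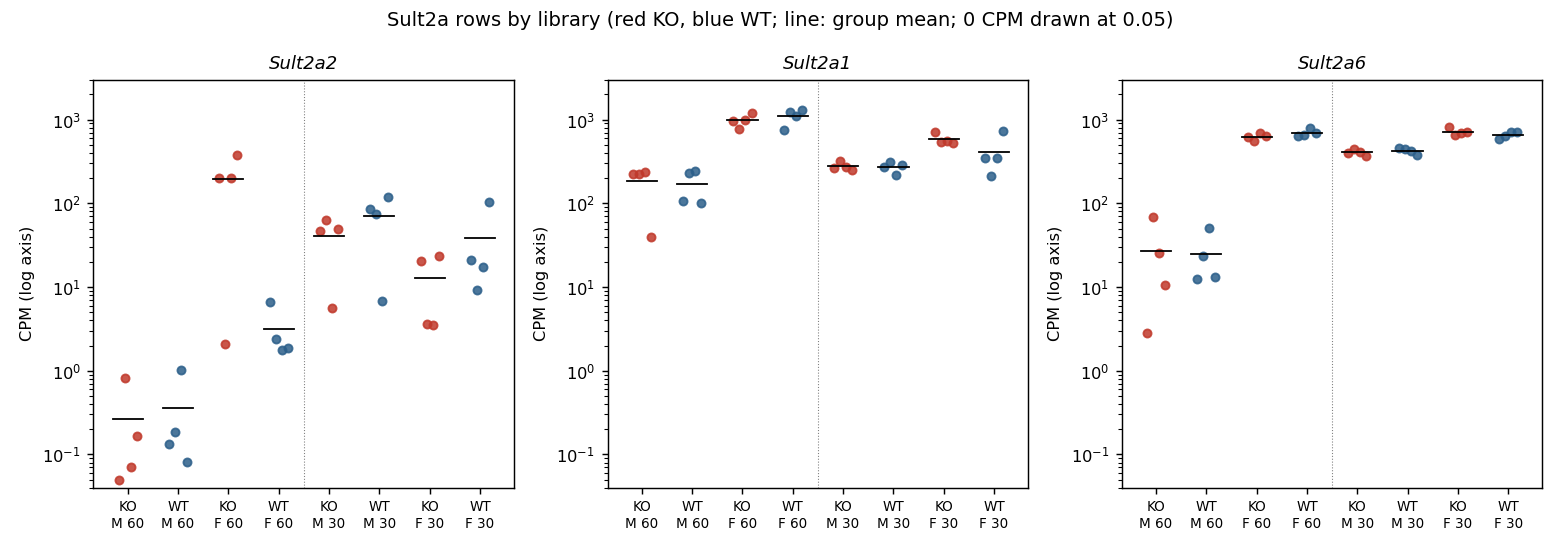
Level of the 3 Sult2a rows in each library, in TMM-scaled CPM on a logarithmic axis, by genotype, sex and age. Sult2a1 and Sult2a6 overlapped between KO and WT females at 60 days, while Sult2a2 lay at 199 to 378 CPM in 3 of 4 KO females and at 1.76 to 6.69 CPM in WT females.

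The near relatives of Sult2a2 were not called in KO livers of either sex or age. Sult2a6, the row that carries Sult2al1 as a synonym, averaged 629 ± 56.2 CPM in KO and 695 ± 73.5 CPM in WT females at 60 days (log2 fold change -0.14, 95% interval -1.09 to 0.81). Sult2a1 averaged 986 ± 176 CPM in KO and 1092 ± 247 CPM in WT females (-0.15, 95% interval -0.94 to 0.64; SD, n = 4 each). These genes are alike, and the sources used here do not say how reads matching several of them were counted, so the division among the 3 rows depends on that counting.

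Sult1c3, known in older literature as an arylamine sulfotransferase, stood at 20.6, 42.0, 33.8 and 27.8 CPM in 60-day KO females and at 20.9, 5.18, 14.6 and 12.3 CPM in WT females. The groups overlapped by the lowest KO and the highest WT liver only. It rose by 1.24 ± 0.34 on the log2 scale (edgeR quasi-likelihood adjusted p = 0.0281). The call was lost without WT replicates 2, 3 or 4 or KO replicates 2 or 3 (adjusted p = 0.0524 to 0.0996) and stood without KO replicate 1 (1.39, adjusted p = 0.0284). In 60-day males, where the gene was much more abundant, it measured 373, 282, 274 and 343 CPM in KO and 417, 343, 334 and 344 CPM in WT livers, a log2 fold change of -0.18 (95% interval -0.82 to 0.46).

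Sult1c2 was a low transcript, with 11 to 58 reads per library. Its levels were 2.17, 3.22, 1.66 and 2.61 CPM in 60-day KO females and 1.89, 0.874, 1.43 and 0.846 CPM in WT females, overlapping groups. The increase of 0.94 ± 0.28 on the log2 scale passed the threshold narrowly (edgeR quasi-likelihood adjusted p = 0.0381) and did so in 2 of the 8 fits without 1 library. It was lost without WT replicates 2, 3 or 4 or KO replicates 1, 2 or 4, with adjusted p = 0.0571 to 0.135, of which 0.0614 without KO replicate 1. The row Sult1c2a, a relative on the same stretch of chromosome 9, stood at 63.8 ± 13.6 CPM in KO and 35.4 ± 14.1 CPM in WT females (0.85 ± 0.25, adjusted p = 0.0386), overlapping groups, and was called in 2 of 8 such fits. This call was also lost in edgeR fits to the 16 libraries of that age (adjusted p = 0.0735) and to these 8 libraries alone (0.214). Among 60-day males Sult1c2a lay at 57.2 to 67.0 CPM in KO and 30.5 to 54.1 CPM in WT, without overlap, and was not called.

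Sult1b1 was not called between genotypes at either age. It averaged 156 ± 20.3 CPM in KO and 214 ± 36.0 CPM in WT females at 60 days, a log2 fold change of -0.46 (95% interval -0.96 to 0.04; adjusted p = 0.284). When only the 16 libraries of 60-day rats were fitted, the adjusted p was 0.0473. In 60-day males the means were 223 ± 22.9 CPM in KO and 224 ± 18.6 CPM in WT (SD, n = 4 each; -0.01, 95% interval -0.51 to 0.49).

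**Figure D3:**
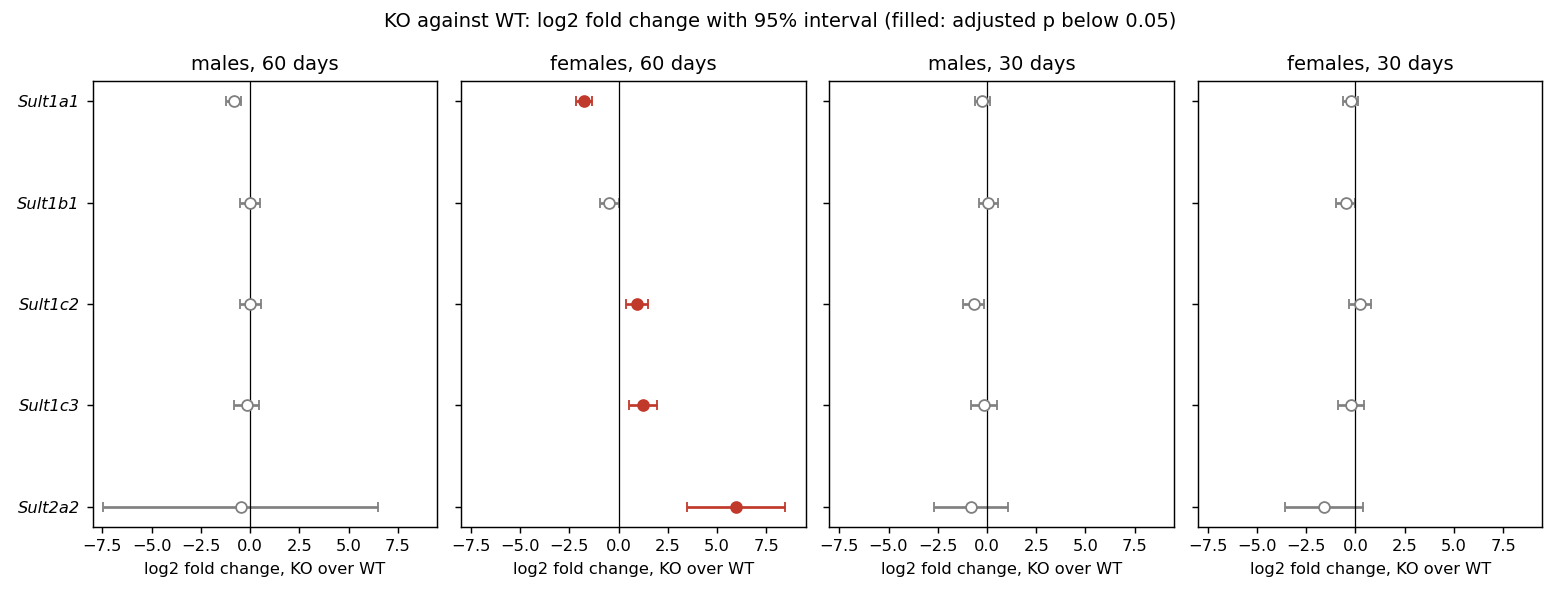
Log2 fold change of KO over WT (horizontal axis) with its 95% interval for the 5 listed members, in males and females at 60 and 30 days. Filled red points, adjusted p below 0.05, occur in 60-day females, where Sult1a1 was at -1.75 and Sult2a2 at 5.96. Sult1a1 in 60-day males lay at -0.83 with an interval that does not cross 0 and was not called after adjustment.

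A score of clock-controlled genes was compared between the female groups at 60 days. The score, the mean log2 CPM of 7 clock genes minus that of 3 genes of the opposite phase, was 0.44, -0.14, -1.16 and -0.83 in KO and -1.13, -2.14, -1.25 and -1.79 in WT females. The groups overlapped, with KO replicate 3 below WT replicate 1, and the difference was not tested. The score was chosen after the data were seen. With the score as a covariate 2 of the 4 members kept their call, and Sult1c3 and Sult1c2 did not, with log2 fold changes of 1.10 and 0.71, against 1.24 and 0.94 without it (adjusted p = 0.228 and 0.384). The part of the score in the result was not tested beyond that fit.

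Among other genes of sulfate handling a few were called in 60-day KO females, where 6.77% of all genes tested were called. Of 8 genes of the sulfate donor and its activation, 1 rose in 60-day KO females, the sulfate transporter gene Slc13a4, at 31.2 ± 5.91 CPM in KO and 17.7 ± 3.94 CPM in WT (0.82 ± 0.15, adjusted p = 0.00156). The PAPS synthases Papss1 (0.20, adjusted p = 0.446) and Papss2 (-0.05, 0.844) and the nucleotidase Bpnt1 (-0.08, 0.721), which clears the spent donor, were not called. Of 13 genes listed for the use of cysteine and its oxidation to sulfate 2 rose. These were the sulfite oxidase gene Suox (0.29 ± 0.08, adjusted p = 0.0251) and Gclc, of glutathione synthesis (0.56 ± 0.17, 0.0445). Of 11 sulfatase and desulfation genes 1 fell, Sts, the steroid sulfatase that reverses steroid sulfation, at 41.3, 50.3, 45.1 and 55.0 CPM in KO and 54.5, 54.2, 78.5 and 73.6 CPM in WT, overlapping groups (-0.44 ± 0.12, adjusted p = 0.0267).
None of 16 membrane-bound sulfotransferases, which act on glycans and proteins in the Golgi, was called in 60-day females, and 3 had an unadjusted p below 0.05. The medians of these lists were -0.01, 0.02, 0.10 and 0.05, against 0.01 over all genes, and in 60-day males 0 genes of any of the 4 lists were called by edgeR's test (1, 1, 1 and 2 genes at an unadjusted p below 0.05; the lists were not counted with another tool).

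Among 27 receptors and factors known to act on sulfotransferase genes, 1 was called in 60-day females, where 6.77% of all genes were, and 10 had an unadjusted p below 0.05. Nr1i3, the drug-sensing receptor CAR, stood at 1.65, 0.58, 1.35 and 2.67 CPM in KO and 2.99, 5.78, 5.34 and 16.4 CPM in WT females. The groups did not overlap, and Nr1i3 fell by 2.28 ± 0.52 (adjusted p = 0.00805). Nr1i3 was not called in 60-day males, at 3.18 to 6.31 CPM in KO and 6.93 to 9.89 CPM in WT, groups without overlap. At 30 days the males lay the other way, at 28.1 to 38.3 CPM in KO and 12.7 to 26.8 CPM in WT, also not called. The 30-day females overlapped. Of the 27 genes 10 had an unadjusted p below 0.05 in 60-day males and 1 was called, where 0.209% of all genes were. Cebpb fell there, at 37.4 ± 6.77 CPM in KO and 75.2 ± 6.96 CPM in WT livers (-1.01 ± 0.17, adjusted p = 0.00792). Of 12 other genes listed as male-predominant in liver, 11 were called higher and 1 lower in males at 60 days in each genotype. Of 12 listed as female-predominant, 9 in KO and 10 in WT were called lower in males and 1 higher, where 18.5% and 26.4% of all genes were called. In 60-day KO females 2 of the first list rose, Slco1a1 (0.33 ± 0.08, adjusted p = 0.0111) and Car3 (1.34 ± 0.40, 0.0429). Of the second list 1 fell, Cyp3a9, at 87.4 ± 32.2 CPM in KO and 426 ± 83.8 CPM in WT (-2.29 ± 0.30, adjusted p = 3.95e-05). The medians of these 2 lists were 0.37 and -0.23, and -0.05 and 0.60 in 60-day males, where edgeR called 0 genes of either list and 3 and 5 had an unadjusted p below 0.05. Cyp2c11 (-1.88 ± 1.67, adjusted p = 0.573) and Cyp2c12 (-0.27 ± 0.26, 0.599) were not called.

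At 60 days Sult1c3 was higher in males and Sult2a1 and Sult2a6 were higher in females in both genotypes. In 60-day KO livers 3 of the 5 members differed between males and females, where 18.5% of all genes were called: 2 were higher in males (9.63% of all genes) and 1 was lower (8.89%). In 60-day WT livers 2 were called, where 26.4% of all genes were called, both higher in males (13.7%). At 30 days 2 members were called and higher in males in each genotype, where 2.24% of all genes were called in KO (0.854% higher) and 2.07% in WT (1.08% higher). Over the 4 comparisons of sex, 9 of 20 member tests were called, and 12.3% of the tests of all genes.

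Sult1c3 measured 373, 282, 274 and 343 CPM in KO males and 20.6, 42.0, 33.8 and 27.8 CPM in KO females at 60 days. The log2 fold change was 3.35 ± 0.34 (adjusted p = 6.12e-08), and 3.20 without replicate 1 of the KO females (adjusted p = 1.06e-06). In WT rats of that age it was 417, 343, 334 and 344 CPM in males and 20.9, 5.18, 14.6 and 12.3 CPM in females, a log2 fold change of 4.77 ± 0.37 (adjusted p = 3.07e-10). The groups were far apart in both genotypes, and the sex difference in KO minus that in WT, -1.42 ± 0.46, was not called (adjusted p = 0.237). At 30 days the sex difference was 1.79 ± 0.32 in KO and 1.71 ± 0.32 in WT rats (adjusted p = 0.00206 and 0.00327).

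The Sult2a rows ran the other way at 60 days. Sult2a6 measured 2.84, 67.9, 25.4 and 10.6 CPM in KO males and 613, 563, 697 and 642 CPM in KO females. In WT rats it measured 12.3, 23.6, 51.2 and 13.3 CPM in males and 642, 652, 802 and 685 CPM in females. No male reached a female value, and the log2 fold changes were -4.55 ± 0.54 in KO and -4.78 ± 0.55 in WT (adjusted p = 6.55e-07 and 2.17e-07). Sult2a1 was lower in males, with log2 fold changes of -2.43 ± 0.40 in KO and -2.68 ± 0.41 in WT (adjusted p = 7.2e-05 and 1.55e-05). Sult2a2 reached at most 0.813 CPM in KO males, against 2.06 to 378 CPM in KO females, which edgeR called (adjusted p = 1.15e-04) and limma-voom did not (adjusted p = 0.409). In WT it reached at most 1.02 CPM in males, against 1.76 to 6.69 CPM in females, which edgeR did not call (adjusted p = 0.291), while DESeq2 (0.0198) and an edgeR fit to these 8 libraries alone (0.0153) did. The few reads in males give no size for either difference. Without replicate 1 of the KO females the values in KO were -4.57 for Sult2a6 and -2.44 for Sult2a1, with adjusted p = 2.21e-06 and 2.07e-04, and Sult2a2 kept its call (adjusted p = 2.56e-04). At 30 days Sult2a6 stood at 367 to 443 CPM in KO males and 649 to 824 CPM in KO females. In WT rats it stood at 376 to 460 CPM in males and 582 to 718 CPM in females. EdgeR on all libraries did not call these differences, while fits to the 8 libraries alone did (adjusted p = 6.54e-04 in KO and 0.00723 in WT). Sult2a1, also not called on all libraries, was at 253 to 321 CPM in KO males and 525 to 710 CPM in KO females and overlapped in WT. Sult2a2 overlapped in both genotypes.

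The remaining members had smaller sex differences. Sult1a1 was higher in males than in females among 60-day KO livers, by 1.27 ± 0.19 (adjusted p = 1.16e-05; 1.08 and 2.49e-05 without replicate 1 of the KO females), and not called in WT, at 0.35 ± 0.19 (adjusted p = 0.17). Sult1b1 was higher in 30-day males, at 233 ± 32.8 CPM in males and 68.9 ± 22.4 CPM in females in KO (1.76 ± 0.25, adjusted p = 9.09e-05), and at 221 ± 72.9 CPM and 97.3 ± 37.0 CPM in WT males and females (1.18 ± 0.24, adjusted p = 0.00679). Sult1c2 was higher in 60-day WT males than in WT females, by 1.01 ± 0.28 (adjusted p = 0.00698). In 30-day rats all KO females carry the same number at the end of their titles, and most WT females and most KO males carry another. With that number as a covariate 2 of the 4 sex calls remained: Sult1b1 in KO and Sult1c3 in WT. The 2 lost calls had log2 fold changes of 1.66 for Sult1c3 in KO (adjusted p = 0.0809) and 1.08 for Sult1b1 in WT (0.0688).

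**Figure D4:**
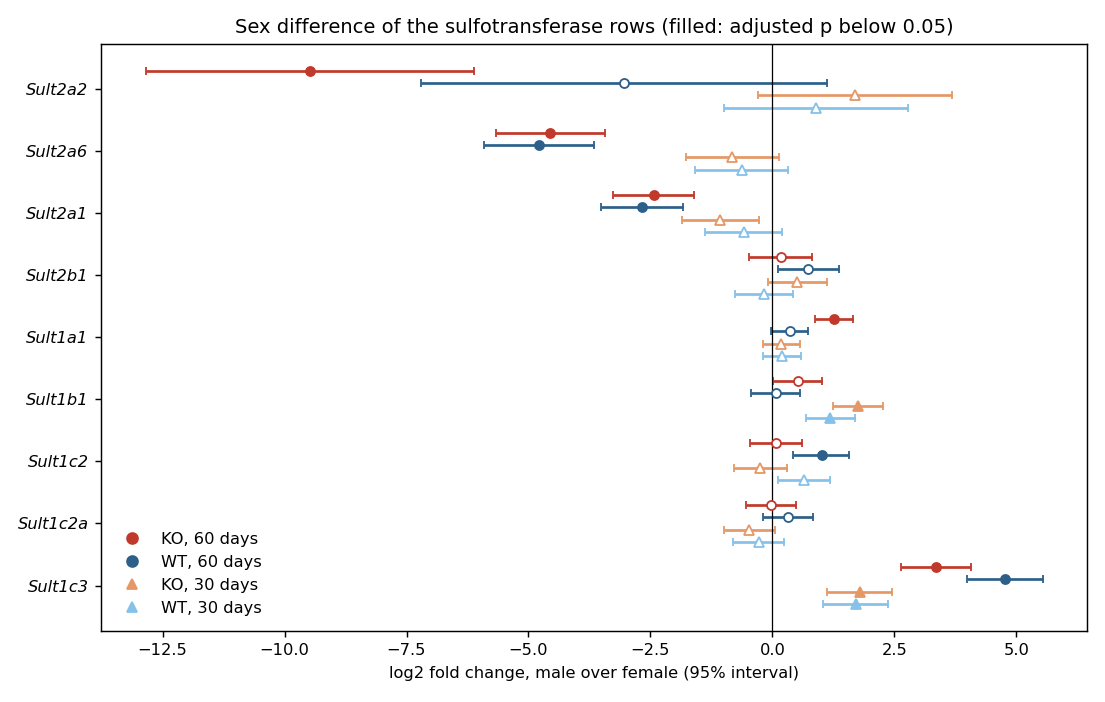
Log2 fold change of males over females (horizontal axis) with its 95% interval, for 9 sulfotransferase rows past the low-count filter, in KO and WT rats at 60 and 30 days (filled: adjusted p below 0.05). The Sult2a rows lie left of 0 at 60 days, at -4.55 in KO and -4.78 in WT for Sult2a6, and Sult1c3 lies right of 0 in all 4 comparisons, up to 4.77.

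Age changed 3 of the 5 members in each of the 4 combinations of sex and genotype, where 22.7 to 33.1% of all genes were called (28.4% in KO males, 31.5% in WT males, 22.7% in KO females and 33.1% in WT females). Over these 4 comparisons edgeR called 12 of 20 member tests, and 28.9% of the tests of all genes, so its count stands above that share. With limma-voom 2 of the 5 members were called in each comparison. The titles of the samples have another form at each age, so age and any difference in handling cannot be told apart. Markers of some other liver cells were lower at 60 days. Of 7 stellate markers 3 were called lower in KO males, 4 in WT males, 3 in KO females and 6 in WT females (medians -0.34, -0.62, -0.33 and -1.03). Of 5 cholangiocyte markers 4, 2, 3 and 2 were called lower in the same order (medians -1.31, -0.49, -0.87 and -0.66), and of 5 endothelial markers 1, 3, 1 and 2. None of the stellate, cholangiocyte or endothelial markers was called higher. Lymphocyte markers went the other way, with medians of 0.94, 0.64, 1.06 and 0.83 in the same order and 2 of 4 called higher in KO females. Of 7 Kupffer markers 2, 1, 2 and 1 were called lower and 1, 0, 0 and 1 higher in the same order (medians -0.27, -0.45, -0.09 and 0.38). The part of these cells in the changes of the sulfotransferases was not tested. In males Sult1c3 rose by 1.33 ± 0.32 in KO and 1.36 ± 0.32 in WT at 60 compared with 30 days (adjusted p = 0.00218 and 0.00174). Sult2a2 held at most 16 reads in any male liver at 60 days, too few for a size of the change, and every 60-day male lay below every 30-day male of its genotype, the lowest of which were at 5.66 CPM in KO and 6.90 CPM in WT. EdgeR called it lower at 60 days in both genotypes (adjusted p = 0.00185 in KO and 5.14e-04 in WT), and limma-voom in neither (adjusted p = 0.421 and 0.317). Sult2a6, which is no listed symbol, fell by 3.92 ± 0.53 in KO and fell by 4.09 ± 0.53 in WT males (adjusted p = 2.75e-06 and 1.61e-06).

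In females the calls at 60 against 30 days included the following. Sult1b1 rose in both, by 1.18 ± 0.24 in KO and 1.14 ± 0.24 in WT (adjusted p = 7.78e-04 and 6.53e-04). Sult1a1 fell by 1.14 ± 0.19 in KO (adjusted p = 4.68e-05) and was at 0.38 ± 0.19 in WT (adjusted p = 0.118). Sult1c3 fell by 1.71 ± 0.34 in WT (adjusted p = 3.38e-04) and was at -0.23 ± 0.32 in KO (adjusted p = 0.672), and the difference between these changes, 1.48 ± 0.47, was not called by edgeR (adjusted p = 0.0807). DESeq2 called it (adjusted p = 0.0319), as did edgeR without replicate 3 of the 30-day KO females (0.0413) or replicate 1 of the 60-day WT females (0.0274). Without replicate 1 of the 60-day KO females the KO changes of Sult1a1, Sult1b1 and Sult2a2 were -0.94, 1.23 and 3.94 (adjusted p = 1.19e-04, 0.00132 and 0.0104). Sult2a2 rose by 3.95 ± 1.02 in KO (adjusted p = 0.00611) and fell by 3.61 ± 1.15 in WT (adjusted p = 0.0172), the second of which was lost without replicate 4 of the 30-day WT females (-2.35, adjusted p = 0.119). Both calls were lost with limma-voom (adjusted p = 0.127 in KO and 0.33 in WT) and with limma on the deposited log2 values (0.0986 and 0.0602), and the KO call also in an edgeR fit to the 8 libraries alone (0.105). The other calls in males were near the threshold. Sult1a1 rose by 0.54 ± 0.19 in WT males (adjusted p = 0.0275) and lost the call without replicates 1 or 3 of either age (adjusted p = 0.0532 to 0.0876). Sult1c2 rose by 0.75 ± 0.26 in KO males (adjusted p = 0.032) and lost the call without replicates 1, 2 or 3 of the 30-day or 1 or 4 of the 60-day KO males (adjusted p = 0.0587 to 0.136).

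Sult1e1, the estrogen sulfotransferase, had 0 reads in all 32 libraries, which allows up to 3 counts, or 0.137 to 0.232 CPM in a single library. This limit covers counting error only, and whether reads of the gene could be assigned to this row was not tested. Among the further rows Sult6b1 also had 0 reads, Sult1d1 had 4 reads in 3 libraries, and Sult5a1 had 80 reads in 26 libraries. Sult4a1, best known from brain, stood at 24.3, 9.67, 1.97 and 24.6 CPM in 60-day KO females and 17.2, 0.0672, 0.195 and 0.692 CPM in WT females. It was not called between genotypes (1.76 ± 0.89, adjusted p = 0.262), but without WT replicate 1 the value was 5.60 (adjusted p = 5.42e-04). It was lower in KO males than in KO females at 60 days (-4.04 ± 1.06, adjusted p = 0.00737) and higher in KO females at 60 than at 30 days (4.69 ± 1.08, adjusted p = 0.00212). Without replicate 1 of those KO females the values were -3.71 (adjusted p = 0.0211) and 4.37 (0.00604). The first call was lost with the clock score as a covariate (-2.40, adjusted p = 0.223) and in edgeR fits to the 16 libraries of that age (0.0739) or to these 8 libraries alone (0.0621). Sult2b1, which sulfates cholesterol and related sterols, lay between 0.375 and 2.18 CPM and was called in no comparison of genotype, sex or age by edgeR on all libraries. Under other settings it was called higher in WT males at 60 than at 30 days, by limma-voom (adjusted p = 0.0493) and without replicate 1 of the 30-day WT males (0.0497), and higher in WT males than in WT females at 60 days, without replicate 2 of those females (0.0162) and with the clock score as a covariate (0.04).

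For each member the genes with the most similar pattern over the 32 libraries were found by Pearson's correlation of log2 CPM, other Sult rows left out. Sult1c3 was most like Cyp2a2 (r = 0.951), Meiob (0.933) and Hao2 (0.925), over libraries that differ in sex and age. Sult1a1 was most like Tmem38b (0.919), Saa4 (0.891) and Hp (0.85). Sult2a2 was most like Camkk2 (0.83), Aldh1b1 (0.782) and Plxna3 (0.781), while Sult1b1 and Sult1c2 had no partner above 0.687 (Lrp2) and 0.735 (Sdha). Between Sult rows, Sult2a2 correlated with Sult2a6 at 0.758 and Sult1c3 with Sult2a1 at -0.851. These libraries share their groups, so the values are descriptions only.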

How the data were processed

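Liver RNA of 32 rats, 4 per group, was made into strand-specific messenger RNA libraries, per the labels' protocols. The submitters' processing notes name STAR, Cufflinks, limma and the assembly Rnor_5.0, without roles or versions. Raw counts of reads for 17327 genes were deposited by the authors. A second deposited table held log2 CPM for 11344 genes and matched the counts to 5e-09 in 11322 of them. Lines for unassigned reads (18.0 to 21.2% of a library on no feature, 0.262 to 0.648% ambiguous) were left out.

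From the deposited counts, genes with low counts were removed (edgeR 4.0.16 filterByExpr, minimum count 10), libraries were scaled by TMM (factors 0.901 to 1.11), and a robust quasi-likelihood model of 8 group means was fitted to all 32 libraries (24 residual degrees of freedom). Adjusted p-values are Benjamini-Hochberg over the 11002 genes tested, with a threshold of 0.05; SE is the size of the log2 fold change over the square root of F. Correlations used log2 CPM with a prior count of 2. R 4.3.3, limma 3.58.1, DESeq2 1.42.0 and biopython 1.88 were used. The test was tried on simulated data. A replicate is 1 rat's library, numbered by accession.

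All listed members, every other Sult row, a few genes of the lists (up to 4 called per list, and Papss1, Papss2, Bpnt1, Sts, Cyp2c11, Cyp2c12 and Serpina6 whatever their value) and the 3 most similar genes per member were to be named. The members and lists were chosen with earlier results of these data known. Promoters are from RefSeq GRCr8, where 6 of the 7 listed symbols matched. Alternatives were other scalings, filters, tests and sets of libraries, leaving out each library in turn, and a clock score and exact tests added after the data were seen; the exact tests are not reported, since 4 against 4 cannot pass the threshold after adjustment.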

Additional observations from a re-analysis of the deposited data

Results flagged for a closer look

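In 80 groups of 4 livers, 1 for each of 10 Sult rows in 8 groups, 9 had a library far from the other 3 by Dixon's criterion. For normally distributed values chance alone gives about 1 in 20. The criterion was used on untransformed CPM, some from few reads, so that rate need not hold here and the count is a description only. Sult2a2 had 3 of them: 105 CPM in replicate 4 of the 30-day WT females, with the others at 9.16 to 21.2 CPM, 6.69 CPM in replicate 1 of the 60-day WT females, with the others at 1.76 to 2.42 CPM, and 1.02 CPM in replicate 3 of the 60-day WT males, with the others at 0.0823 to 0.187 CPM. Sult1b1 was low in replicate 3 of the 30-day WT males, at 113 CPM with the others at 243 to 268 CPM. Sult1c3 was high in replicate 1 of the 60-day WT males, at 417 CPM with the others at 334 to 344 CPM. Sult2a1 was at 39.9 CPM in replicate 4 of the 60-day KO males, with the others at 226 to 239 CPM, and at 710 CPM in replicate 1 of the 30-day KO females, with the others at 525 to 553 CPM. Sult4a1 was at 2.66 CPM in replicate 3 of the 60-day KO males, with the others at 0.164 to 0.444 CPM, and at 17.2 CPM in replicate 1 of the 60-day WT females, with the others at 0.0672 to 0.692 CPM.

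The effect of genotype differed between 60 and 30 days in females for 2 members by the test of that difference in edgeR's quasi-likelihood model: -1.52 on the log2 scale for Sult1a1 (adjusted p = 0.00199) and 7.56 for Sult2a2 (adjusted p = 0.00845). The Sult2a2 difference was not called with limma-voom (adjusted p = 0.256) or with limma on the deposited log2 values (0.0749). Both differences rest on the 30-day females, in whom genotype largely coincides with the number in the titles.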

How the results depend on the processing

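Between KO and WT, 4 of 20 member tests were called, 2 with limma-voom, 2 in fits to the 8 libraries compared and 2 with the clock score as a covariate, and 2 to 5 without 1 library. The 4 difference-of-effect tests gave 2 calls of 20, against 4 with DESeq2, 1 with limma-voom and 1 with limma on the deposited log2 values, and 2 to 3 without 1 library. Between males and females 9 of 20 were called, 9 without any 1 library, and of the 4 calls at 30 days 2 remained with the title number as a covariate. Between 60 and 30 days 12 of 20 were called, and 11 to 13 without 1 library. These were 3 members in each of the 4 comparisons, against 2 in each with limma-voom. Under DESeq2 size factors, upper-quartile scaling, no filter on low counts or a filter of 1 CPM in 4 libraries, no count moved by more than 1.5 times. No called value turned its direction. Over single members, 738 values under other settings kept their side of the threshold, 27 lost and 9 gained a call. Without 1 library these were 775, 21 and 4. Direction was compared only for values called in either of the fits. Calls of Sult1c2 and Sult1c3 in 60-day KO females sit close to the threshold, at few reads for Sult1c2. The causes were not tested. No paired analysis was possible because the replicate numbers were given in accession order and pair no animals.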
